A study of Mus musculus with 4 samples.

Results

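The members described here were 60-mer array probes whose sequence holds several separate runs of guanine, or several separate runs of cytosine, but few CpG dinucleotides. A run was 3 or more identical bases in a row. Of 19805 tiled probes, 752 (3.8%) were members, 372 with 3 or more guanine runs and 380 with 3 or more cytosine runs, each with fewer than 3 CpG. No probe belonged to both classes. Membership was read from the probe sequence alone and used no measured value.

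The cells were PGK12.1, an undifferentiated female mouse embryonic stem cell line, grown without treatment and without synchronisation. Short nascent strands, the newly made DNA that flanks a replication origin (ORI), were separated by length on sucrose gradients, freed of broken DNA with λ-exonuclease and co-hybridised with total genomic DNA of the same cells. A pair of arrays carried strands of 300–800 nt, with the nascent DNA in Cy3 and the genomic DNA in Cy5, and another pair carried strands of 100–600 nt with the dyes the other way round. Both DNAs were labelled by random priming with dye-coupled dCTP. All arrays tiled a region of chromosome 3 and 2 regions of the X chromosome. Each value below is a log2 ratio of nascent to genomic signal, loess normalised within its array, so that 0 is the middle of an array and not a measured absence of nascent DNA. Fraction, dye order, array print and software version all changed together between the pairs and cannot be told apart.

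Guanine runs are best known for the G-quadruplex, a stacked structure that a single strand with several such runs can fold into. A run of cytosines in the printed strand is a run of guanines in the opposite strand, so both classes mark the same kind of duplex, read from one side or from the other. G-rich motifs have been described near many mammalian origins, often together with CpG islands. The limit on CpG keeps CpG-rich probe sequences out of the classes. Whether a member lies within a CpG island was not tested. Short nascent strands carry an RNA primer at their 5′ end, which protects them from λ-exonuclease.

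The probes with the most runs show what the classes consist of. The runs that define a probe's class are in capitals in each sequence printed here, and runs of any other base are in lower case. Each probe is named by the number of its unique fragment and its offset in that fragment, as in the probe names. The pair with 6 guanine runs and the pair with 5 cytosine runs were:
fragment 42736, offset 650: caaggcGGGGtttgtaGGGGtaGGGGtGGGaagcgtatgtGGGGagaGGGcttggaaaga
fragment 67127, offset 660: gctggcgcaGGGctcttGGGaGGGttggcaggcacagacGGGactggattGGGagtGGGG
fragment 108423, offset 320: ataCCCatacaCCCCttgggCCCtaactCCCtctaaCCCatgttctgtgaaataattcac
fragment 66618, offset 20: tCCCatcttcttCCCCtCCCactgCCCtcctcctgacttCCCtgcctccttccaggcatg

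The next set is shown because it holds, in each class, a member that was high or low on every array. The first 2 had the highest minimum over the arrays in the guanine-run and the cytosine-run class, and the last 2 were low on all 4:
fragment 107507, offset 190: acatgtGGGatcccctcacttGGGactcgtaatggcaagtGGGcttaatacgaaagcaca
fragment 67134, offset 10: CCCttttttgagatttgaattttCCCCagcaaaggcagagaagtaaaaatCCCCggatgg
fragment 43367, offset 60: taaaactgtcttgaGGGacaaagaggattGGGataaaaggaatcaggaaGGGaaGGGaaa
fragment 63879, offset 610: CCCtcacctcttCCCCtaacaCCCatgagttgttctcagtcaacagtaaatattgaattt

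The last set holds, of the members called different between the fractions, the one with the largest fitted difference in each direction, with the guanine-run pair first and the cytosine-run pair after it:
fragment 65420, offset 40: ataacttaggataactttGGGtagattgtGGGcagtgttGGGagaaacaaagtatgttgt
fragment 63685, offset 40: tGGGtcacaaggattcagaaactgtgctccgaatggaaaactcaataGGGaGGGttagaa
fragment 107802, offset 40: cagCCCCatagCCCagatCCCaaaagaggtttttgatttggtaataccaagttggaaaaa
fragment 67463, offset 4290: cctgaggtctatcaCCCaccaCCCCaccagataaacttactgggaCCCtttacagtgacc

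Most members held the minimum of 3 runs, namely 326 of the guanine-run and 318 of the cytosine-run probes, and no run was longer than 4 bases. Without the limit on CpG, 2.06% of all tiled probes held 3 or more GGG runs and 2.13% held 3 or more CCC runs. Guanine-run members had on average 19.5 guanines and 9.41 cytosines in 60 nt, and cytosine-run members had 9.51 guanines and 19.7 cytosines. Their C+G contents were therefore close, 48.1% and 48.6%, against 41.5% in the 18373 other probes with fewer than 3 CpG. The classes also differed in their A and T bases, since purines made up 59.98% of guanine-run and 39.6% of cytosine-run sequence, against 49.8% in the others. No CpG at all was present in 232 guanine-run and 234 cytosine-run members. The members lay on 676 of 10582 fragments, so some of them share a stretch of DNA. The tighter pattern of 4 runs of the same base parted by spacers of 1 to 7 bases, a common text rule for G-quadruplexes, was held by 6 guanine-run and 5 cytosine-run members, and by 0.0606% of all tiled probes on either strand.

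All 372 guanine-run and 380 cytosine-run members had a value on both 300–800 nt arrays. On the 100–600 nt arrays the scanner software had marked more spots as saturated, uneven or outlying, and these were left out. On replicate 1 of 100–600 nt this removed 11.6% of the cytosine-run members, 5.64% of the guanine-run members and 6.74% of the other probes, and on replicate 2 it removed 16.3%, 14.5% and 15.8%. A value on all 4 arrays remained for 299 guanine-run and 282 cytosine-run members. The 300–800 nt arrays differed from each other by a SD of 0.0921 over all probes, less than the 0.111 that repeated spots within those arrays predict, and they were therefore counted as 1 sample wherever a second count is given below. The 100–600 nt arrays differed by a SD of 0.348. The number of arrays, not the number of probes, limits the precision of every comparison between classes.

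Guanine-run probes were below the middle of all arrays, and furthest below in 300–800 nt strands. Their mean log2 ratio was -0.41 and -0.42 on replicates 1 and 2 of 300–800 nt and -0.12 on both replicates of 100–600 nt. Cytosine-run probes had means of 0.13 and 0.12 in 300–800 nt strands and of -0.42 and -0.20 in 100–600 nt strands. They thus stood above the array middle with the longer strands and below it with the shorter ones. The other probes with fewer than 3 CpG had means between -0.05 and -0.02 on all 4 arrays. Within a class the probes spread widely, with a SD between probes of 0.75 to 0.78 in 300–800 nt and of 0.49 to 0.68 in 100–600 nt strands.

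**Figure D1:**
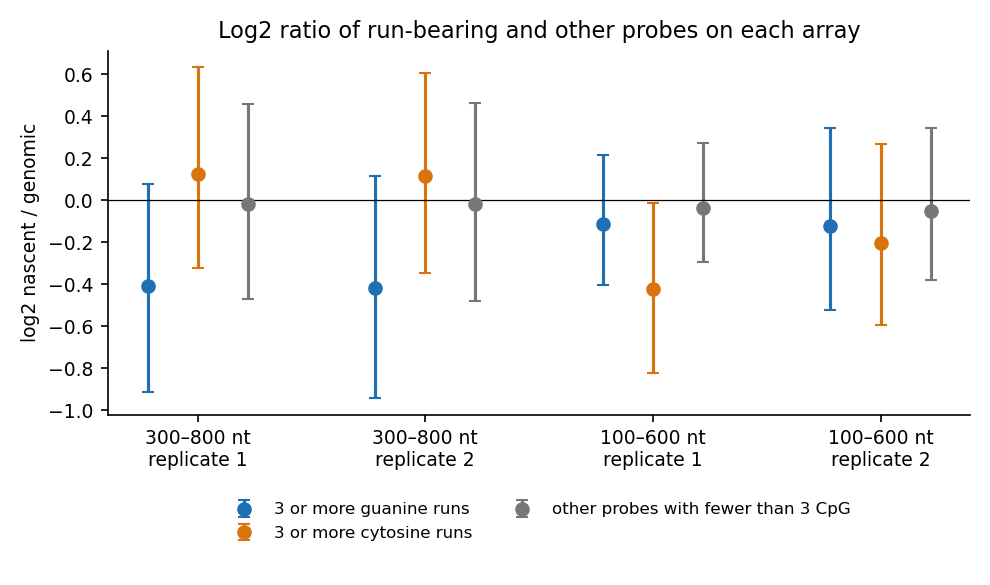
Mean log2 ratio of nascent over genomic signal (vertical axis) on each of the 4 arrays for guanine-run, cytosine-run and other probes with fewer than 3 CpG, with bars from the lower to the upper quartile over probes. Guanine-run means lie below cytosine-run means on the 300–800 nt arrays and above them on the 100–600 nt arrays.

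The guanine-run mean minus the cytosine-run mean was -0.54 and -0.53 on the 300–800 nt arrays and 0.31 and 0.08 on the 100–600 nt arrays. The difference thus had opposite signs in the fractions, and its size differed between the 100–600 nt replicates by more than its smaller value. An exact two-sided sign-flip permutation test over the 4 arrays gave p = 0.5. An exact permutation test of the per-array differences between the fractions gave p = 0.333, the smallest that pairs of arrays allow. Adjusted over the 6 tests of this family, made up of this difference and the comparisons of each class with probes of equal C+G, every p was 0.5.

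The same signs held in each tiled region. On the 300–800 nt arrays the difference was -0.73 on both in chromosome 3, -0.42 and -0.43 in X region 1 and -0.45 and -0.44 in X region 2. On the 100–600 nt arrays it was 0.27 and 0.02 in chromosome 3, 0.39 and 0.17 in X region 1 and 0.28 and 0.09 in X region 2. Chromosome 3 had the largest difference in 300–800 nt strands and the smallest in 100–600 nt strands. Both classes were also found together on 24 fragments. Their members can still lie far apart there, as at offsets 860 and 2680 of fragment 43765. There the guanine-run value was the lower one in 19 of 24 fragments on each 300–800 nt array, with mean differences of -0.66 and -0.65. On the 100–600 nt arrays 20 of those fragments had a value, and the guanine-run value was the higher one in 15 on replicate 1 and in 11 on replicate 2, with mean differences of 0.27 and 0.19.

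Probes of equal C+G content were the next comparison. Each member was set against the mean of all non-member probes with fewer than 3 CpG and the same number of C+G bases. Guanine-run probes differed from them by -0.40 on both 300–800 nt arrays and by -0.15 and -0.19 on the 100–600 nt arrays, so they were lower on 4 of 4 arrays. With median centring the difference was -0.64 in 300–800 nt and -0.28 in 100–600 nt strands, and with 4 or more runs it was -0.33 in 100–600 nt strands. The exact sign-flip permutation test gave p = 0.125, the smallest that 4 arrays allow, and p = 0.25 with the 300–800 nt arrays as 1 sample. Cytosine-run probes differed by 0.13 on both 300–800 nt arrays and by -0.46 and -0.29 on the 100–600 nt arrays, with p = 0.5 in the same exact test. In 300–800 nt strands this was 0.43 with median centring, and -0.040 for members with 4 or more runs, where the direction turned. Between the fractions the exact permutation p was 0.333 for either class, again the smallest possible.

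The comparison changed when guanines and cytosines were held equal separately. Probes with the same number of G and the same number of C were present for 353 guanine-run and 361 cytosine-run members. Against these the guanine-run probes differed by 0.03 on both 300–800 nt arrays and by -0.10 and 0.01 on the 100–600 nt arrays, where the sign was not the same. Cytosine-run probes differed by 0.14 and 0.15 in 300–800 nt and by -0.12 and -0.17 in 100–600 nt strands. Most of the deficit of guanine-run probes at equal C+G was thus not seen at equal guanine and equal cytosine numbers, while the opposite signs of the cytosine-run probes in the fractions were still there.

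Probes outside the classes, with at most 2 runs of either base, also moved with the balance of the bases. Among 203 non-member probes with at least 15 more guanines than cytosines, the mean log2 ratio was -0.95 and -0.97 on the 300–800 nt arrays and -0.29 and -0.51 on the 100–600 nt arrays. The 73 guanine-run members of that balance had means of -0.94 and -0.95, and of -0.35 and -0.54. At the other end, 226 non-member probes with at least 15 more cytosines than guanines had means of -0.30 and -0.32 in 300–800 nt and of -0.86 and -0.32 in 100–600 nt strands. The 88 cytosine-run members of that balance stood at -0.05 and -0.07, and at -0.81 and -0.45. In the middle, with a balance from -4 to 4, the 55 guanine-run members had means of 0.14 and 0.15 and of 0.10 and 0.16, and the 65 cytosine-run members had 0.25 and 0.25 and -0.03 and -0.07. The 9352 non-member probes of that balance had means of 0.08 and 0.09, and of 0.06 and 0.01, so they and the guanine-run members were above 0 on every array.

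**Figure D2:**
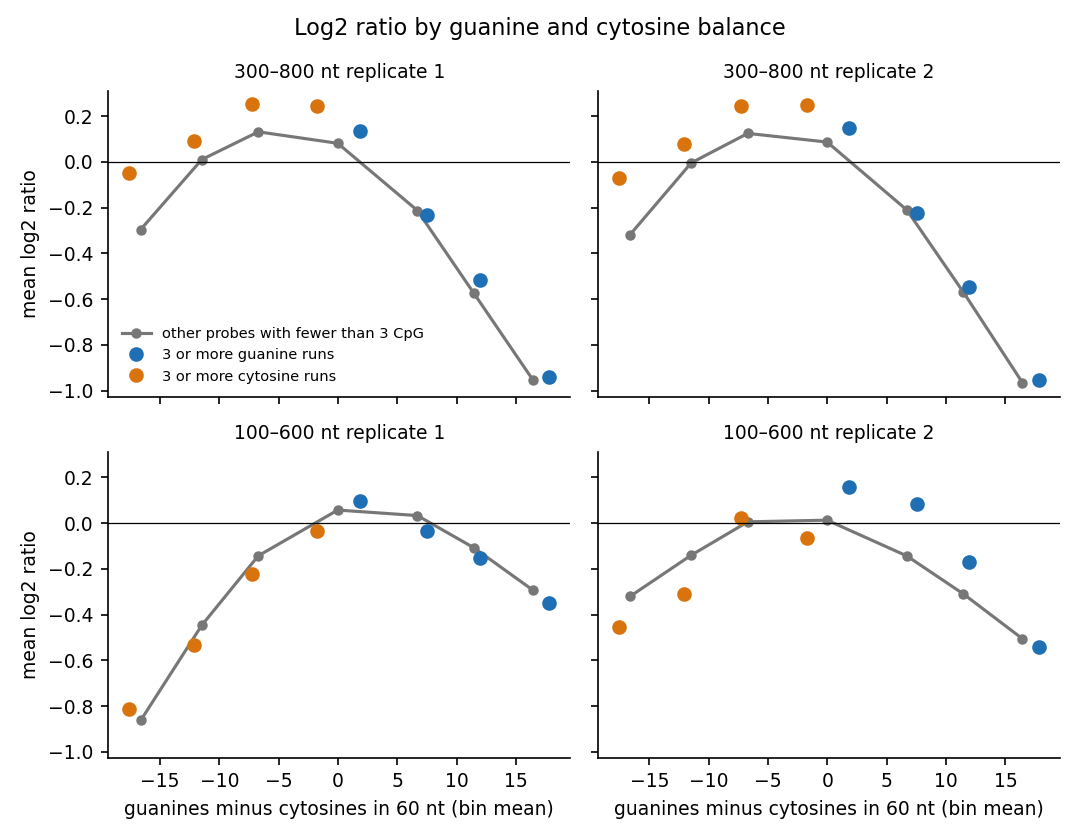
Mean log2 ratio (vertical axis) against the number of guanines minus the number of cytosines in the 60-mer (horizontal axis, mean of each bin), 1 panel per array, for non-member probes (grey line), guanine-run and cytosine-run members; bins with fewer than 5 probes are not drawn. Guanine-run points follow the grey line closely on the 300–800 nt arrays, and cytosine-run points lie above it there.

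The brightness of the channels also moved with the classes. In the genomic channel the median cytosine-run probe was brighter than the array median by 1.14 and 1.13 on the log2 scale on the 300–800 nt arrays and by 0.95 and 0.96 on the 100–600 nt arrays. Guanine-run probes stood at 0.10 and 0.09, and at -0.32 and -0.34. In the nascent channel cytosine-run probes stood at 1.65 and 1.64, and at 0.49 and 0.95, and guanine-run probes at -0.25 and -0.30, and at -0.39 and -0.71. The hybridisation signal of the reference channel thus differed between the classes on all 4 arrays, which is no measure of the amount of DNA at different probes. The part of this brightness in the log2 ratios was not tested. With median centring alone, without the loess step that follows brightness, the guanine-run minus cytosine-run difference was -1.10 in 300–800 nt and 0.12 in 100–600 nt strands.

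The mean values varied with the number of runs. In 300–800 nt strands the mean of both arrays was 0.03 for probes with no guanine run, -0.06 with 1, -0.20 with 2, -0.40 with 3 and -0.49 with 4. The 1656 probes with 2 runs and the 326 with 3 lie on either side of the threshold of the class. The step between them was the widest up to 4 runs, while 5 and 6 runs were held by only 4 and 2 probes. The number of guanines was not held equal in these steps. In 100–600 nt strands the means were -0.07 with no guanine run, -0.01 with 1, -0.02 with 2, -0.10 with 3 and -0.27 with 4. For cytosine runs in 300–800 nt strands the means were 0.07 with 2, 0.15 with 3 and -0.02 with 4 runs, so the last step went the other way. In 100–600 nt strands they were -0.17, -0.29 and -0.43.

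**Figure D3:**
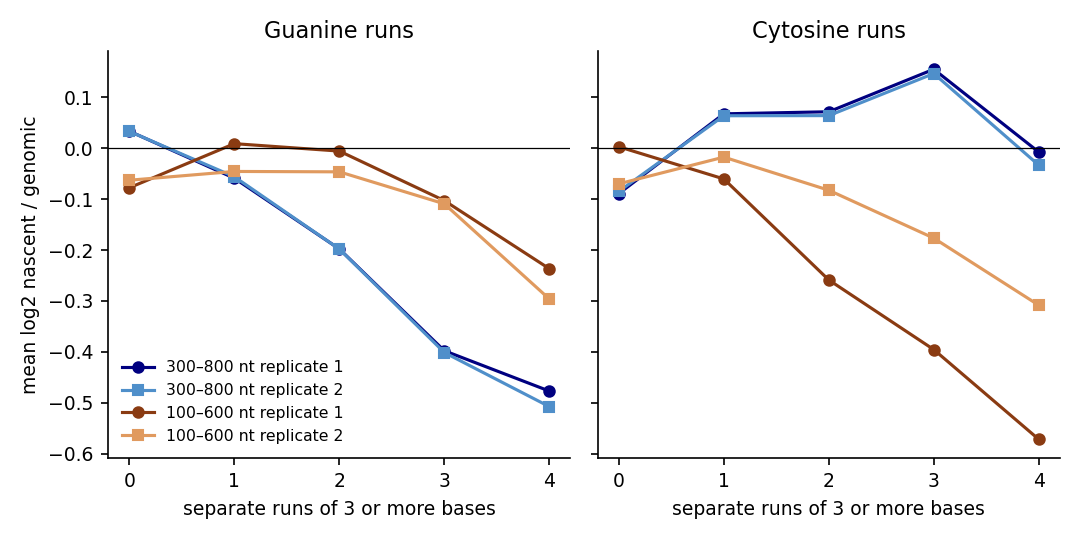
Mean log2 ratio (vertical axis) of probes with fewer than 3 CpG by the number of separate guanine runs (left) or cytosine runs (right), 1 line per array; numbers of runs held by fewer than 40 probes are not drawn. Guanine-run means fall on the 300–800 nt arrays from 0.03 without a run to -0.48 and -0.51 with 4 runs.

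The means also varied with the number of CpG in each class, without C+G held equal. Guanine-run probes in 300–800 nt strands had a mean of -0.48 without CpG, -0.39 with 1 and -0.08 with 2. Just outside the rule, 19 probes with 3 guanine runs or more and 3 CpG had a mean of -0.20 in 300–800 nt and 0.29 in 100–600 nt strands. Cytosine-run probes rose from 0.09 without CpG to 0.30 with 2 in 300–800 nt strands, and the 20 probes with 3 CpG stood at 0.48. In 100–600 nt strands the cytosine-run means were -0.34 without CpG, -0.26 with 2 and -0.06 with 3. These are descriptions over unequal numbers of probes.

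Members were also set against their neighbours. Non-member probes within 1000 bp on the same fragment were available for 250 guanine-run members, about 3 neighbours each. On the 300–800 nt arrays the member minus its neighbours was -0.37 and -0.36 on average, and the member was the higher one in 78 and 75 of 250. On the 100–600 nt arrays it was -0.10 and -0.14. For 279 cytosine-run members the difference from the neighbours was 0.10 and 0.09 in 300–800 nt and -0.36 and -0.25 in 100–600 nt strands. Neighbours 60 to 300 bp after a guanine-run member had means of 0.02 and 0.03 in 300–800 nt strands, and those as far before it 0.00 and -0.01. The departure of the guanine-run probes was thus not seen in the means of the nearest probes, 104 before and 119 after a member. The 250 members with neighbours had means of -0.29 and -0.30 themselves on the 300–800 nt arrays. The cause was not tested. Around cytosine-run members the nearest neighbours stood at 0.11 and 0.12 before and at 0.16 and 0.17 after the member in 300–800 nt strands. All cytosine-run members had means of 0.13 and 0.12 there, and the 279 with neighbours had 0.19 and 0.18. In 100–600 nt strands the nearest neighbours stood at -0.01 and 0.07 before and at -0.02 and 0.18 after, above the members.

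**Figure D4:**
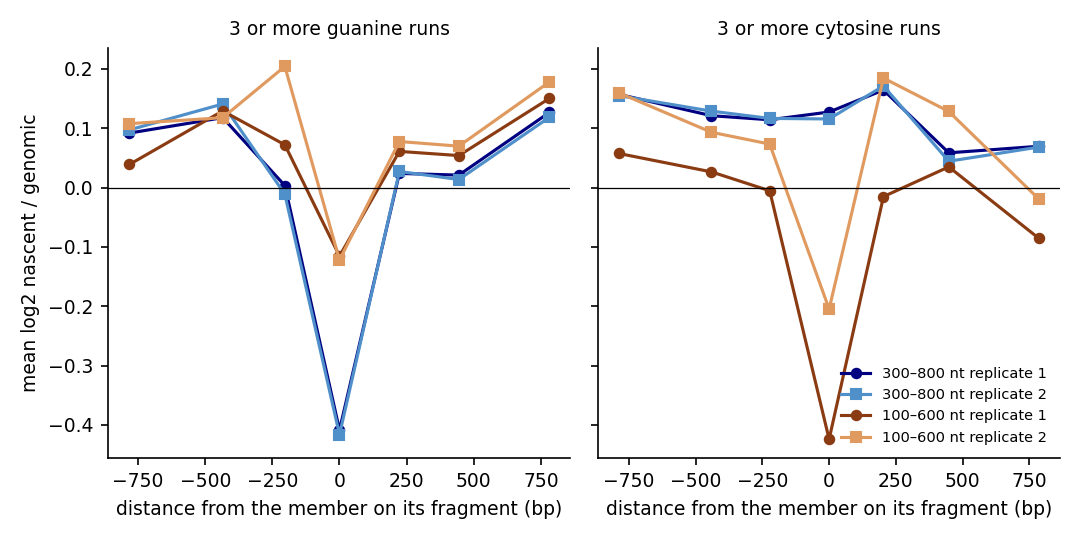
Mean log2 ratio (vertical axis) of members (distance 0) and of non-member probes on the same fragment, by distance in bp from the member along the probe strand (horizontal axis), 1 line per array. The low point at guanine-run members is -0.41 and -0.42 on the 300–800 nt arrays, and at cytosine-run members -0.42 and -0.20 on the 100–600 nt arrays, with neighbours near or above 0 on both sides. The points at distance 0 hold all members with a value, also those without neighbours.

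Probes above the 0.95 quantile of a fraction's mean log2 ratio were called positive, the threshold that the study's window method uses. This threshold was 1.16 in 300–800 nt and 0.64 in 100–600 nt strands. In 300–800 nt strands 9 of 372 guanine-run members (2.42%) and 24 of 380 cytosine-run members (6.32%) were positive, against 5% of all probes. The cytosine-run count was 71 (18.7%) with median centring and 44 (11.6%) with normexp background correction, where 5% of all probes were again positive by definition. In 100–600 nt strands 16 of 370 guanine-run (4.32%) and 12 of 372 cytosine-run members (3.23%) were positive, again against 5%. Below the 0.05 quantile, which 5% of all probes also were, lay 51 guanine-run members (13.7%) and 20 cytosine-run members (5.26%) in 300–800 nt strands. In 100–600 nt strands the order was turned, with 28 guanine-run (7.57%) and 64 cytosine-run members (17.2%) in the lowest 5%.

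Each array alone gave the same order in the lower tail. Guanine-run members made 14.2% and 14.5% of their class in the lowest 5% of the 300–800 nt arrays, and cytosine-run members 5% and 4.74%. On the 100–600 nt arrays guanine-run members made 6.84% and 8.49%, and cytosine-run members 21.1% and 11%. In both fractions at once, 0.682% of all probes were positive, and of the members 1 guanine-run and 2 cytosine-run probes were. In the lowest tail of both fractions were 11 guanine-run members (2.97%) and 6 cytosine-run members (1.61%), against 1.33% of all probes.

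The members positive in both fractions all lay at promoters in the study's probe list of its ORIs. The guanine-run probe of fragment 107507, listed at the promoter of Chd1l, which encodes a chromatin remodeller, had log2 ratios of 1.46 and 1.31 in 300–800 nt and of 1.10 and 1.54 in 100–600 nt strands. The cytosine-run probe of fragment 67134, listed at the promoter of Hcfc1, a transcriptional co-regulator, had 1.52 and 1.53, and 1.19 and 1.71. The cytosine-run probe at offset 120 of fragment 106324, listed at the promoter shared by Pias3 and C230057H02Rik, had 1.79 and 2.04, and 0.49 and 1.18. The first 2 were high on all 4 arrays with overlapping fractions, and the last was higher in 300–800 nt strands. In all, 10 members were in that list, 9 of the cytosine-run class (2.37%) and 1 of the guanine-run class (0.269%), against 0.757% of all probes. The list was drawn from these same arrays and is no independent evidence of their values.

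The other listed members described here were cytosine-run probes and were higher with the longer strands. The probe in fragment 108117, in an intron of the receptor gene Notch2, had 1.51 and 1.63 in 300–800 nt strands and 0.21 on replicate 1 of 100–600 nt, with no value on replicate 2. The probe in an exon of Flna, which encodes the actin crosslinker filamin A, had 1.14 and 1.13 in 300–800 nt and 0.22 and -0.17 in 100–600 nt strands. The probe in an exon of the semaphorin receptor gene Plxnb3 had 1.34 and 1.46, and 0.25 and 0.50. In each of these the fractions did not overlap. The probe at the promoter of Hs6st2, a heparan sulphate sulphotransferase gene, had 1.13 and 1.35, and 0.56 and 0.43, and the one at the promoter of Uchl5ip had 1.25 and 1.28, and -0.63 and -0.37.

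Among members that were high on every array, the levels after those already given were lower. The guanine-run probe of fragment 43152 had 0.80 and 0.95 in 300–800 nt and 0.49 and 0.73 in 100–600 nt strands. The guanine-run probes of fragments 43779 and 66774 lay between 0.40 and 1.07 on all arrays. The cytosine-run probes of fragments 109456, 66522 and 66799 lay between 0.51 and 0.88. For none of these 6 members did the fractions differ at an adjusted p under 0.05 in limma's moderated test.

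At the low end, the guanine-run probe of fragment 43367, with 4 runs and 21 guanines against 4 cytosines, had -3.33 and -3.05 in 300–800 nt and -2.80 and -1.36 in 100–600 nt strands. It was the lowest guanine-run member on both 300–800 nt arrays. The guanine-run probes of fragments 106874 and 109054 lay between -1.94 and -1.26 on all arrays. In the cytosine-run class the probe of fragment 63879 had -1.66 and -1.64, and -1.75 and -2.06, and those of fragments 42553 and 66172 lay between -2.17 and -1.01. The signs of these members were the same on all 4 arrays.

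The members with the most runs had varied levels. The probe of fragment 42736, with 6 guanine runs, had -0.65 and -0.68 in 300–800 nt and -0.41 and -0.81 in 100–600 nt strands. The probe of fragment 67127, also with 6, had -1.16 and -1.17 in 300–800 nt strands and 0.28 on replicate 2 of 100–600 nt, with no value on replicate 1. The cytosine-run probe of fragment 108423, with 5 runs, had 0.40 and 0.27, and -1.23 and -1.68, and that of fragment 66618 had -0.71 and -0.79 and a single 100–600 nt value of -0.74. The probe of fragment 108423 was above 0 on both 300–800 nt arrays and below 0 on both 100–600 nt arrays. The guanine-run probe of fragment 106074, with 5 runs, lay between -0.66 and 0.00, and the cytosine-run probe of fragment 105691, with 4, had 0.89 and 0.84 in 300–800 nt and -0.09 and 0.09 in 100–600 nt strands. The 6 guanine-run members with the tighter quadruplex pattern had means of -0.50 and -0.56 in 300–800 nt strands and of -0.18 and -0.10 in 100–600 nt strands. The 5 cytosine-run members with it ranged from -1.36 to 2.21 in 300–800 nt strands, and so held members at both ends.

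The difference between the fractions was then fitted for every probe with a value on all arrays, with limma's moderated test and Benjamini-Hochberg adjustment over 15478 probes. Positive differences are higher in 300–800 nt strands. The median difference was -0.34 in 299 guanine-run members and 0.41 in 282 cytosine-run members, against 0.01 over all probes. At an adjusted p under 0.05, 102 guanine-run members (34.1%) were lower in 300–800 nt strands, as were 16.2% of all probes, and 28 (9.36%) were higher, as were 18.9% of all probes. Of the cytosine-run members 112 (39.7%) were higher and 27 (9.57%) were lower. With the 300–800 nt arrays counted as 1 sample, the calls were 20 lower (6.69%) and 5 higher (1.67%) among guanine-run members, and 45 higher (16%) and 3 lower (1.06%) among cytosine-run members, against 4.82% higher and 2.2% lower over all probes. Without replicate 1 or 2 of 300–800 nt, 22 (7.36%) and 17 (5.69%) guanine-run members were lower, against 2.29% and 1.93% of all probes, and 6 (2.01%) and 5 (1.67%) were higher, against 4.93% and 4.56%. In the same fits 45 (16%) and 41 (14.5%) cytosine-run members were higher, and 3 (1.06%) and 2 (0.709%) were lower. Fits without replicate 1 or 2 of 100–600 nt drew their spread only from the 300–800 nt arrays, which differed less than repeated spots predict. The counts of those fits are therefore not given here, and appear only within the ranges in the section on processing. In all of the counts given here more guanine-run members were lower than higher, and more cytosine-run members were higher than lower.

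**Figure D5:**
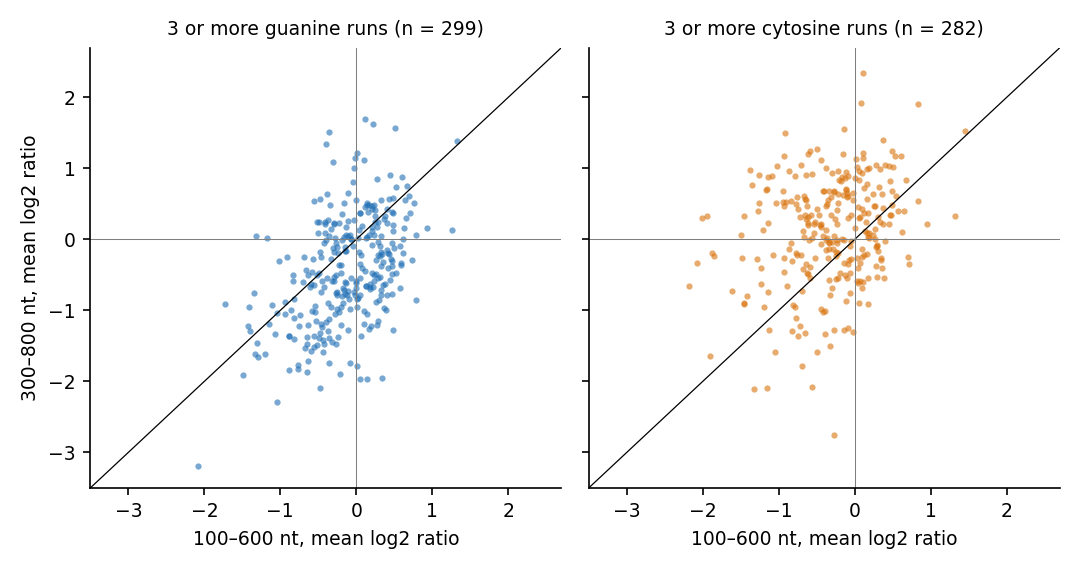
Mean log2 ratio in 300–800 nt strands (vertical axis) against 100–600 nt strands (horizontal axis) for each member with values on all 4 arrays, guanine-run (left, 299) and cytosine-run (right, 282), with the line of equality. Most guanine-run points, 198, lie below the line, and most cytosine-run points, 193, lie above it.

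The guanine-run member that fell furthest in the longer strands was in fragment 65420, with -1.91 and -1.99 in 300–800 nt and 0.13 and 0.54 in 100–600 nt strands. Its difference was -2.29 ± 0.19 (SE, limma adjusted p = 0.00753, and 0.00277 with the 300–800 nt arrays as 1 sample). The guanine-run probe of fragment 109262 had -1.93 and -2.01, and 0.44 and -0.14, a difference of -2.12 ± 0.23. In the other direction, the guanine-run probe of fragment 63685 had 1.45 and 1.57, and -0.16 and -0.55, a difference of 1.86 ± 0.19 (limma adjusted p = 0.00753). That of fragment 67012 had 1.39 and 1.29, and -0.19 and -0.62. Both directions were thus present within the class at similar size.

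Among cytosine-run members the probe of fragment 107802 had 1.52 and 1.49 in 300–800 nt and -0.35 and -1.49 in 100–600 nt strands, a difference of 2.43 ± 0.38. The probe of fragment 65928 had 0.91 and 1.06, and -1.35 and -1.40, a difference of 2.36 ± 0.14 (limma adjusted p = 0.00753, and 0.00207 with the 300–800 nt arrays as 1 sample). The probe of fragment 67463 went the other way, with -2.71 and -2.81, and -0.30 and -0.24, a difference of -2.49 ± 0.14. That of fragment 66959 had -2.01 and -2.15, and -0.72 and -0.41. In all of these the fractions did not overlap.

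Over the members of a class the fractions were only loosely related. Pearson's r between the fraction means was 0.47 over 370 guanine-run, 0.26 over 372 cytosine-run and 0.36 over 18221 other probes, as a description over probes that share their arrays. Between the 100–600 nt replicates r was 0.63 over 299 guanine-run and 0.78 over 282 cytosine-run members. The number of cytosines had an r of 0.44 with the 300–800 nt values of guanine-run members and of 0.39 with their 100–600 nt values. The number of guanines had an r of 0.42 with the 100–600 nt values of cytosine-run members but of 0.13 with their 300–800 nt values. Members with more of the scarcer of the G and C bases thus tended to have the higher values, least so for cytosine-run members in 300–800 nt strands.

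Exact matches to RefSeq promoter windows of GRCm38.p6, which span 250 bases before to 50 after each gene's start, placed 125 probes on the genome, all 125 on the plus strand. Of these, 6 were guanine-run and 5 cytosine-run members. These 3 are shown because they set a guanine-run site on the coding strand beside one on the template strand and a cytosine-run site:
Ankrd34a, chr3:96596412-96596471, plus strand: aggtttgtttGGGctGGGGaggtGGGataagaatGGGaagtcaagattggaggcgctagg
Renbp, chrX:73930943-73931002, plus strand: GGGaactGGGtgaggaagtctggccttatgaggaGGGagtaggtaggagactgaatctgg
Pias3, chr3:96696210-96696269, plus strand: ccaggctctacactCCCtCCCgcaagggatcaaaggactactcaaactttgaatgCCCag

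The Ankrd34a site, upstream of an ankyrin repeat gene read from the plus strand, has its guanine runs on the coding strand. It was low on all arrays, with -1.02 and -1.09 in 300–800 nt and -0.65 and -1.23 in 100–600 nt strands. The Renbp site, upstream of the renin-binding protein gene on the minus strand, has them on the template strand. It was above 0 on all arrays, with 0.16 and 0.16, and 0.85 and 1.02, and was lower in 300–800 nt strands (difference -0.77 ± 0.14 SE, limma adjusted p = 0.0172, and 0.217 with the 300–800 nt arrays as 1 sample). The Pias3 site, upstream of a SUMO ligase gene, had 0.86 and 0.90, and -0.94 and -1.36, a difference of 2.03 ± 0.19 (limma adjusted p = 0.00753). It lies on the same fragment as the listed Pias3 probe described above, which was above 0 on all arrays.

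The remaining promoter members had a variety of levels. Among guanine-run members the site at Acp6, a lysophosphatidic acid phosphatase gene (chr3:97158537-97158596), had 0.93 and 0.82 in 300–800 nt strands and -0.01 on the one 100–600 nt array with a value. The site at Mtmr11 (chr3:96161798-96161857), a myotubularin-related gene, was below 0 on all arrays, from -1.11 to -0.24. The site at Opn1mw, the medium-wave cone opsin gene, lay between -0.44 and -0.12, and that at Dnase1l1, a gene related to DNase I, had -0.02, 0.01 and 0.10 but -0.90 on replicate 2 of 100–600 nt. Among cytosine-run members the site at Usp26, a deubiquitinase gene (chrX:51801189-51801248), had 0.51 and 0.68, and -0.66 and -0.85, so the fractions had opposite signs. The site at Fmo5 (chr3:97628799-97628858), a flavin-containing monooxygenase gene, had -1.01 and -1.04, and -0.30 and -0.54. The site at Zfp697, a zinc-finger gene, which is also in the ORI list, had 1.06 and 0.99, and 0.64 and 0.27, and that at Cd160, a lymphocyte receptor gene, lay between -0.32 and 0.21.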

How the data were processed

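Nascent and genomic DNA were compared on 4 two-colour Agilent arrays, 2 for each strand length. The authors deposited the scanner output, in which Agilent Feature Extraction, version 9.5.3.1 for 300–800 nt and 7.5.1 for 100–600 nt per the file headers, had turned spot intensities into background-subtracted, dye-normalised signal intensities. Probe design was on Ensembl mouse build 35, of which no sequence was used here.

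Control spots, 72 spots of no tiled region on each 100–600 nt array and spots marked by the software were left out. The log2 ratio of processed signals was loess normalised within each array in limma 3.58.1 (R 4.3.3), and spots of a probe were averaged, with repeated spots on 19792 or more probes of the 300–800 nt arrays. Sequences were taken from the 100–600 nt files and joined by probe name. Classes were computed in Python 3.11.15, and the steps were tested on simulated data. Arrays, not probes, were the replicates in the exact tests. No source says whether the 2 hybridisations of a fraction were separate cultures apart from the study's word of biological replicates for 300–800 nt strands, so p-values may measure technical spread.

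Members and lists were chosen with earlier results of these data known. The probes named were, in each class and among members with values on all arrays, the 4 with the highest minimum, the 3 with the lowest maximum and the 2 with the largest fraction difference in each direction at an adjusted p under 0.05. Whether or not a value was missing, they also were the 3 with most runs and those in the study's ORI list, of which 1 is not reported here. All promoter matches and members with the quadruplex pattern were added afterwards. The alternatives tried were median centring, normexp with an offset of 50 on median signals, marked spots kept, 4 or more runs, other matching of base composition, a 0.90 quantile, a replicate block, the 300–800 nt arrays as 1 sample and leaving out each array. The hybridisation numbers were not treated as pairs, since replicate deviations of the fractions had r = -0.0097 over 15478 probes.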

Additional observations from a re-analysis of the deposited data

Results flagged for a closer look

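The guanine-run minus cytosine-run difference in log2 ratio went one way on both arrays of one fraction and the other way on both arrays of the other. It was -0.54 and -0.53 on replicates 1 and 2 of 300–800 nt strands, and 0.31 and 0.083 on replicates 1 and 2 of 100–600 nt strands. At equal numbers of guanine and of cytosine, a comparison chosen after seeing the data, the difference was -0.12 on both 300–800 nt arrays. On replicates 1 and 2 of 100–600 nt strands it was then 0.020 and 0.18. The exact permutation test between the fractions gave p = 0.333, the smallest that 2 arrays against 2 allow, so the design cannot pass a threshold of 0.05. Dye order, array print and software version change with the fraction and cannot be told apart from it.

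Cytosine-run probes against probes of equal C+G content also had opposite signs, with 0.13 and 0.13 on replicates 1 and 2 of 300–800 nt and -0.46 and -0.29 on replicates 1 and 2 of 100–600 nt strands. The same exact test gave p = 0.333. At equal numbers of guanine and of cytosine the values were 0.14 and 0.15, and -0.12 and -0.17.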

How the results depend on the processing

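Of 112 recomputed values, 59 kept their sign and lay within the spread between replicates, or within 1.5 times for a count, 51 moved further and 2 were reversed. The reversed values were guanine-run probes in 300–800 nt strands at equal guanine and equal cytosine numbers (0.026 in place of -0.40) and cytosine-run probes with 4 or more runs in 300–800 nt strands against equal C+G (-0.040 in place of 0.13). The cause was not tested. Since the 300–800 nt arrays hardly differ, small moves count there.

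With median centring, the 300–800 nt values were -1.10 for guanine-run minus cytosine-run, -0.64 for guanine-run and 0.43 for cytosine-run probes against equal C+G, and guanine-run probes of 100–600 nt strands were at -0.28. Positive cytosine-run probes in 300–800 nt strands rose from 24 to 71, and cytosine-run probes lower in 300–800 nt than in 100–600 nt strands dropped from 27 to 7. With normexp the 300–800 nt values were -0.44 for the class difference and -0.31 for guanine-run probes, and 44 cytosine-run probes were positive. The limma counts were 6 higher and 22 lower guanine-run and 53 higher and 8 lower cytosine-run probes. No share over all probes is given for these limma counts or for the 7 with median centring. Whether they exceed an array-wide rate cannot be read from them. With 4 or more runs the class difference in 300–800 nt strands was -0.48. Guanine-run probes then differed from equal C+G by -0.57 in 300–800 nt and -0.33 in 100–600 nt strands. Cytosine-run probes of 100–600 nt strands differed by -0.56. Only 46 guanine-run and 62 cytosine-run members had that many runs, and 5% of all probes were positive by definition. Of these members, 1 and 2 guanine-run and 3 and 3 cytosine-run probes were positive in 300–800 nt and 100–600 nt strands. After subtraction of the mean at the same C+G the class difference in 300–800 nt strands was -0.53, and at the same G and same C, chosen after seeing the data, -0.12. Matching on C+G and CpG gave -0.40 for guanine-run and 0.14 for cytosine-run probes in 300–800 nt strands. Matching on G and C separately gave 0.14 for cytosine-run probes in 300–800 nt strands, and in 100–600 nt strands -0.045 for guanine-run and -0.14 for cytosine-run probes. At the 0.90 quantile, with 10% of all probes positive, 17 (4.57%) and 33 (8.92%) guanine-run and 54 (14.2%) and 21 (5.65%) cytosine-run probes were positive in 300–800 nt and 100–600 nt strands.

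With the 300–800 nt arrays as 1 sample, limma called 5 higher and 20 lower guanine-run and 45 higher and 3 lower cytosine-run probes. Leaving out each array in turn gave 5 to 76 higher and 17 to 195 lower guanine-run probes, and 41 to 217 higher and 2 to 96 lower cytosine-run probes. The upper ends of these ranges came from fits without a 100–600 nt array, which drew their spread only from the 300–800 nt arrays. A large share of all probes was called in both directions in those fits. As shares, the upper ends for higher guanine-run and lower cytosine-run probes were below those of all probes, and the others were above. With the hybridisation number as a replicate block the counts were 27 higher and 113 lower guanine-run and 123 higher and 36 lower cytosine-run probes. No class changed its direction, and no share over all probes is given for this setting either. The numbers did not pair the arrays. Members with marked spots have fewer values on the 100–600 nt arrays, and 2 guanine-run and 8 cytosine-run members have none there.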

Other observations

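The members with the tighter pattern, 4 or more runs of one base with spacers of 1 to 7, are few enough to be given singly. Among guanine-run members with it, the probe of fragment 107429 had -1.24 and -1.33 in 300–800 nt strands and -0.13 on replicate 1 of 100–600 nt. The probe of fragment 44732 had -0.51 and -0.58, and 0.49 and 0.09, and that of fragment 63343 had -0.13 and -0.27, and 0.25 and 0.61. These were lower with the longer strands, while the probe of fragment 108482 had 0.02 and 0.15, and -0.63 and -0.38. Among cytosine-run members, the probe of fragment 46040 had 2.17 and 2.21 in 300–800 nt strands and 0.05 on replicate 2 of 100–600 nt, and that of fragment 67093 had 0.53 and 0.49, and -1.29 and -1.22. The probes of fragments 63988 and 66910 were below 0 on every array with a value, from -1.36 to -0.67.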
